A study of Mus musculus with 4 samples.

Results

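A set of 9 genes of adrenergic and cAMP signaling was followed in mouse hearts that overexpress miR-128. The genes were listed by symbol, with earlier results of these data known, and make up 9 of the 24454 genes in the count table. They are the receptor genes Adrb1, Adra1a and Adra1b, the adenylyl cyclase genes Adcy5 and Adcy6, the phosphodiesterase genes Pde3a and Pde4d, and the protein kinase A (PKA) genes Prkaca and Prkar1a. RNA-seq was performed on total RNA of hearts at postnatal day 7 (P7), with 2 Ctrl libraries (WH7 and WH8) and 2 miR-128OE libraries (WH9 and WH10). By the study's methods, Ctrl mice carried miR-128TetRE alone, and miR-128OE mice carried both α-MHC-tTA and miR-128TetRE. Both groups therefore held the miR-128 cassette at the Rosa26 locus, and both were kept on a C57BL/6 background. The α-MHC promoter drives the transactivator tTA in cardiomyocytes, and the transgene is repressed as long as doxycycline is given. The doxycycline schedule of these P7 animals is not given in the sources used here, and neither is the number of mice behind each library. P-values below therefore measure only the spread between these libraries, which may be technical. The libraries held 12385863 and 8096870 counts in Ctrl and 12440553 and 14359838 counts in miR-128OE hearts.

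Noradrenaline and adrenaline act on the heart through β receptors, which couple to Gs and activate adenylyl cyclase. The cAMP made by the cyclase binds the regulatory subunits of PKA and frees its catalytic subunits, which phosphorylate calcium channels, phospholamban, the ryanodine receptor and troponin I. Phosphodiesterases break cAMP down and confine it to parts of the cell. The α1 receptors use Gq and phospholipase C instead, with protein kinase C downstream. In cardiomyocytes this system raises the rate and force of contraction.

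The labels were checked first. The count table does not measure mature miR-128. Of its hairpin genes, Mir128-1 was at 0 counts throughout, while Mir128-2 was at 0 in both Ctrl libraries, at 2 counts in WH9 and at 10 counts in WH10. Xist, the RNA that coats the inactive X chromosome, was counted 14543 and 11339 times in Ctrl but 94 and 132 times in miR-128OE hearts. Ddx3y, a gene of the Y chromosome, was counted 13 and 7 times in Ctrl but 1442 and 1768 times in miR-128OE hearts. The condition coincided with the sex of the mice in these libraries, so the effects of condition and of sex cannot be told apart in any result below.

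The mature miR-128-3p and its matches in the 9 genes are shown because the seed, bases 2 to 8, is what a miRNA pairs with in a 3′UTR. RefSeq places the same mature sequence at chr1:128202404-128202424 on the plus strand (Mir128-1) and at chr9:112118644-112118664 on the minus strand (Mir128-2) of GRCm38.p6. The seed is in capitals.
miR-128-3p: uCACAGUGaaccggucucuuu
The motifs searched were CACTGTG (7mer-m8, the complement of the seed) and ACTGTGA (7mer-A1, which ends opposite the first base). A sequence that holds both is an 8mer, so the motifs overlap. Only the transcript strand of the longest 3′UTR of a protein-coding GENCODE M21 model was searched. The stretches below are 30 bases of GRCm38 in transcript direction, with the match in capitals.
Pde3a, 8mer, chr6:141499196-141499225, plus strand: gcacacatgcaCACTGTGAgctaggatgcc
Pde3a, 8mer, chr6:141499259-141499288, plus strand: tatgtagaggtCACTGTGAcatagaaagtc
Pde4d, 7mer-m8, chr13:109952360-109952389, plus strand: attgctcccctCACTGTGtgcaaagtgagt
Adcy5, 7mer-m8, chr16:35304163-35304192, plus strand: gtctgcttttcCACTGTGgagaggtcactc
Adcy6, 7mer-A1, chr15:98591651-98591680, minus strand: gctttactggtACTGTGAaaatgaccagcc
Pde3a held 4 matches in its 3′UTR of 8555 bases, the 2 shown and 2 more of the 7mer-m8 type. Adrb1, Adra1a, Adra1b, Prkaca and Prkar1a held none. A match was thus present in 4 of 9 genes (44.4%), against 31.0% of the 13464 tested genes with a 3′UTR. That comparison did not take length into account. The 3′UTRs of the 4 genes with a match ran from 1997 bases in Adcy5 to 8555 in Pde3a, while the median over tested genes was 1199 bases. These are matches of letters, not measured binding sites.

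In miR-128OE hearts, 4 of the 9 genes were higher and 0 were lower by edgeR's quasi-likelihood test. DESeq2 and an unadjusted p under 0.05 also gave 4 and 0. The 4 were Pde4d, which rose 2.0-fold, Prkaca (1.63-fold), Prkar1a (1.62-fold) and Adra1b (1.51-fold). Adrb1, Adcy5, Adcy6 and Pde3a did not pass the test, and Adra1a was too low to be tested. Across the 14266 genes tested, 31.5% passed the same threshold, an adjusted p under 0.05 in edgeR's quasi-likelihood test, with 16.5% higher and 15.0% lower. The median log2 fold change was 0.36 over the 8 tested genes and −0.01 over all tested genes. The libraries of the groups did not overlap for 5 of the 8 genes, and they did not overlap for 68.1% of all tested genes. In whole hearts, a change in the share of a cell type and a change in RNA per cell cannot be told apart.

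**Figure D1:**
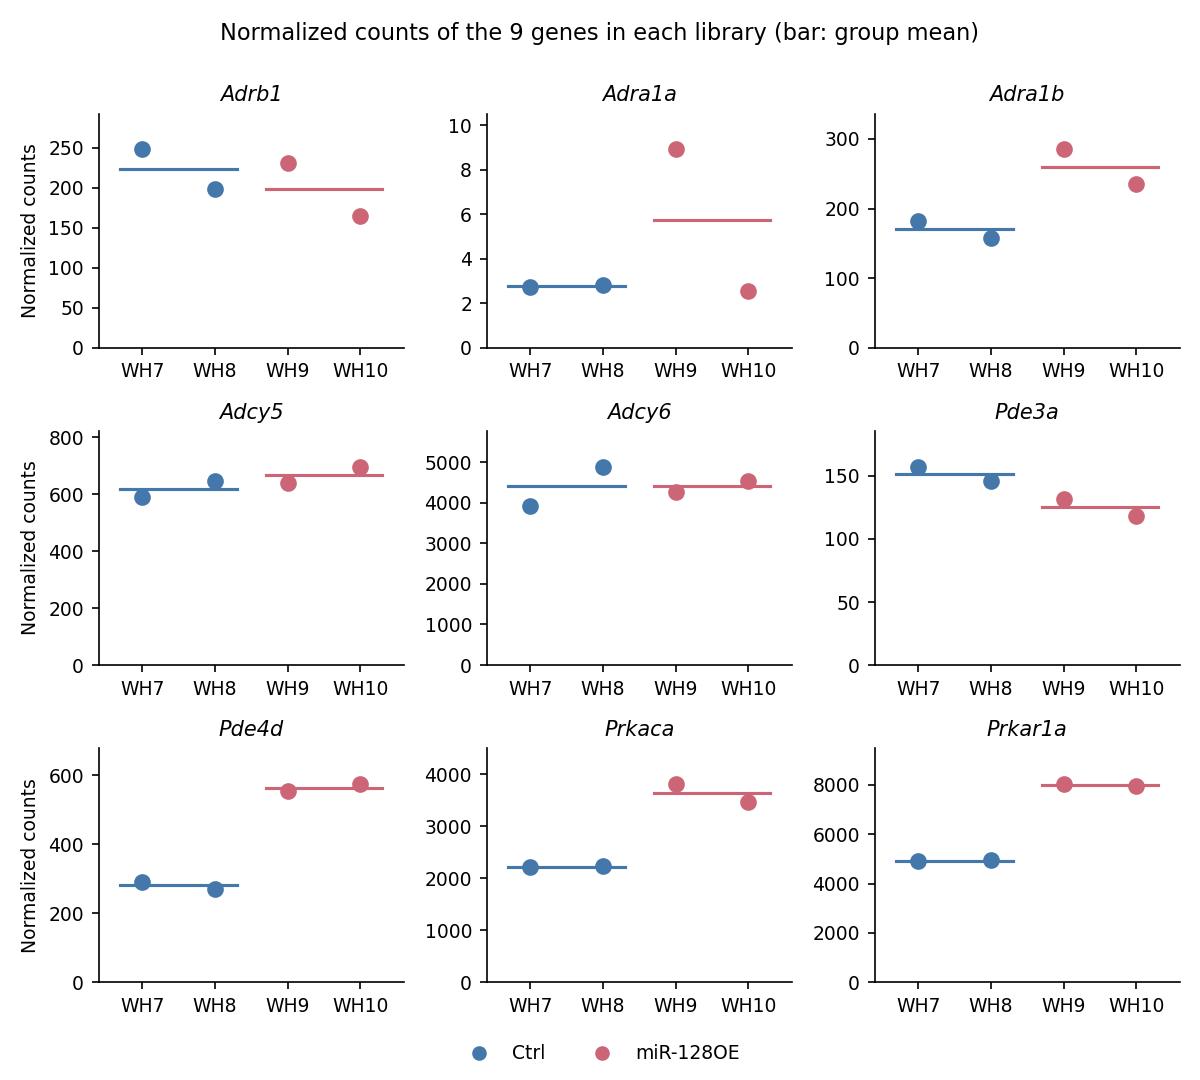
Normalized counts (vertical axes, each from 0) of the 9 genes in the libraries WH7 and WH8 (Ctrl) and WH9 and WH10 (miR-128OE). Points are libraries and bars are group means. Both miR-128OE libraries sit above both Ctrl libraries for Adra1b, Pde4d, Prkaca and Prkar1a, and below both for Pde3a.

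Among the receptors, Adrb1 (chromosome 19 of GRCm38, 56722117 to 56725150) encodes the β1 receptor, the main β receptor of cardiomyocytes. Its normalized counts were 248 and 198 in Ctrl and 231 and 165 in miR-128OE hearts. The groups overlapped, and the log2 fold change was −0.19 (standard error, SE, 0.19, edgeR adjusted p = 0.462). Adra1b (chromosome 11, 43774605 to 43901250) encodes the α1B receptor. It had 182 and 158 normalized counts in Ctrl and 285 and 235 in miR-128OE hearts. Both miR-128OE libraries were above both Ctrl libraries, with a log2 fold change of 0.60 (SE 0.15, edgeR adjusted p = 0.0156). Of the 4 calls this was the one lost in an alternative fit. Without WH9 the log2 fold change was 0.47 and the adjusted p was 0.154. Adrb1 and Adra1b have the same exon length of 3382 bases, so their counts can be compared directly. The ratio of Adrb1 to Adra1b was 1.36 and 1.25 in Ctrl and 0.809 and 0.703 in miR-128OE hearts, so Adrb1 was the more abundant of the pair in both Ctrl libraries and the less abundant in both miR-128OE libraries.

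Adra1a, the gene of the α1A receptor, had raw counts of 3 and 2 in Ctrl and 9 and 3 in miR-128OE hearts. All but WH9 were at or under 3 counts, the level taken as the detection floor, so no difference was detectable at this depth. Of the other receptor genes, Adrb3, Adra2a and Adra2c were also too low to be tested. Of the 9 receptor genes listed, 5 were tested, and Adra1b was the one that passed. Per exon length, Adra1b made up 33.8% and 33.7% of the summed receptor level in Ctrl and 47.7% and 44.2% in miR-128OE hearts. Adrb1 went from 46.0% and 42.1% in Ctrl to 38.6% and 31.1% in miR-128OE hearts.

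The cyclase genes did not pass the test. Adcy6 and Adcy5 encode the calcium-inhibited cyclases that predominate in the heart. Adcy6 had 3914 and 4887 normalized counts in Ctrl and 4271 and 4547 in miR-128OE hearts. The miR-128OE values lay between the Ctrl values, and the log2 fold change was 0.0041 (SE 0.11, edgeR adjusted p = 0.981). Its sign turned under several settings, so no direction can be given. Adcy5 had 592 and 647 normalized counts in Ctrl and 641 and 697 in miR-128OE hearts, which overlapped, with a log2 fold change of 0.12 (SE 0.10, edgeR adjusted p = 0.386). Of the 10 cyclase genes listed, 8 were tested. Of these, 0 passed by edgeR's quasi-likelihood test, by DESeq2 or at an unadjusted p under 0.05. Of all tested genes, 31.5% passed by edgeR's quasi-likelihood test. Adcy1 and Adcy4 each passed in 2 of 13 alternative fits. Per exon length, Adcy6 made up between 61.6% and 64.9% of the summed cyclase level in every library. Adcy4, the next most abundant, had 777 and 938 normalized counts in Ctrl and 718 and 752 in miR-128OE hearts. Part of the exons of Adcy6 (8.92% of bases) and of Pde3a (5.82%) overlaps an antisense gene. Whether the counting used strand is not given in the sources used here, so reads of the pairs cannot be told apart.

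Of the 2 phosphodiesterase genes, Pde4d rose and Pde3a did not pass the test. Pde4d (chromosome 13, 108654177 to 109955969) encodes a cAMP-specific enzyme that is part of β receptor and ryanodine receptor complexes. Its normalized counts were 292 and 270 in Ctrl and 553 and 574 in miR-128OE hearts. The difference was far larger than the spread within either group, with a log2 fold change of 1.00 (SE 0.10, edgeR adjusted p = 0.000228). Pde3a (chromosome 6, 141249269 to 141506862) encodes a cGMP-inhibited enzyme that acts at the sarcoplasmic reticulum. It had 157 and 146 normalized counts in Ctrl and 132 and 119 in miR-128OE hearts. Both miR-128OE libraries were below both Ctrl libraries, but the log2 fold change of −0.28 did not pass the test (SE 0.16, edgeR adjusted p = 0.211). The count ratio of Pde4d to Pde3a was 1.85 in both Ctrl libraries and 4.20 and 4.84 in miR-128OE hearts. Both genes carry seed matches, 1 in Pde4d and 4 in Pde3a.

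The list of phosphodiesterases that act on cAMP held 16 genes, of which 15 were tested, 3 were higher and 3 were lower (1 and 3 by DESeq2). That is 40.0% called, against 31.5% of all tested genes. The higher genes besides Pde4d were Pde7b and Pde10a, with log2 fold changes of 0.48 and 0.65. Both lost their call by DESeq2, with total counts, and without either miR-128OE library. Pde7b also lost its call without WH8, and Pde10a without WH7. Pde1b, which calcium and calmodulin activate, had 148 and 141 normalized counts in Ctrl and 78.2 and 57.2 in miR-128OE hearts (log2 fold change −1.11, edgeR adjusted p = 0.0039). Pde1c, of the same calmodulin-dependent kind, had a log2 fold change of −0.48, and Pde2a, which cGMP activates, one of −0.37. Pde1c lost its call without WH8, WH9 or WH10 and with an offset for GC content and length, and Pde2a without WH9 or WH10. Pde4a, of the same cAMP-specific family as Pde4d, had a log2 fold change of 0.18 that did not pass the test. Pde2a also shares 64.3% of its exon bases with Gm45837 on the same strand. The summed level of the 16 genes per exon length was 58.1 and 60.2 RPKM (reads per kilobase of exon and per 1e6 reads) in Ctrl and 58.7 and 58.4 in miR-128OE hearts. The share of Pde4d in that sum was 3.55% and 3.17% in Ctrl and 6.67% and 6.96% in miR-128OE hearts, and that of Pde2a was 35.6% and 32.9% in Ctrl and 28.2% and 25.5% in miR-128OE hearts. By this length both miR-128OE sums lay within the Ctrl range. Per longest transcript the sum was 95.1 and 98.2 RPKM in Ctrl and 98.4 and 99.4 RPKM in miR-128OE hearts, so that both miR-128OE sums lay just above it. The share of Pde4d by that length was 6.18% and 5.54% in Ctrl and 11.3% and 11.7% in miR-128OE hearts.

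Both PKA genes rose. Prkaca (chromosome 8, 83972978 to 83996444) encodes the main catalytic subunit, Cα. It had 2213 and 2237 normalized counts in Ctrl and 3808 and 3461 in miR-128OE hearts, with a log2 fold change of 0.71 (SE 0.08, edgeR adjusted p = 0.000375). Prkar1a (chromosome 11, 109649023 to 109669663) encodes the regulatory subunit RIα, which holds the catalytic subunit inactive until cAMP binds. It had 4891 and 4957 normalized counts in Ctrl and 8020 and 7950 in miR-128OE hearts, with a log2 fold change of 0.70 (SE 0.08, edgeR adjusted p = 0.000395). In both genes the Ctrl libraries lay close together and every miR-128OE library was well above them. The count ratio of Prkaca to Prkar1a was 0.453 and 0.451 in Ctrl and 0.475 and 0.435 in miR-128OE hearts, so the Ctrl ratios lay within the miR-128OE range.

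Of the 9 listed genes of PKA subunits and inhibitors, all were tested, 4 were higher and 0 were lower by edgeR's quasi-likelihood test. At an unadjusted p under 0.05 the counts were 5 and 0, and by DESeq2 they were 2 and 0. Of all tested genes, 16.5% were higher, and 2 of the 4 are Prkaca and Prkar1a themselves. The other 2 higher genes were Prkacb, the Cβ catalytic subunit (log2 fold change 0.28), and Pkig, a PKA inhibitor peptide (0.26). Both calls were lost by DESeq2, with upper-quartile factors, with total counts, and without either miR-128OE library. Pkia, another inhibitor peptide gene, had a log2 fold change of 0.19 and did not pass. Prkar2a, which encodes the regulatory subunit RIIα that anchoring proteins bind, had 401 and 394 normalized counts in Ctrl and 361 and 367 in miR-128OE hearts and did not pass the test. The count ratio of Prkar1a to Prkar2a was 12.2 and 12.6 in Ctrl and 22.2 and 21.7 in miR-128OE hearts. The summed level of the 9 genes per exon length was 240 RPKM in both Ctrl libraries and 367 and 351 RPKM in miR-128OE hearts.

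The promoter of Prkar1a is shown because it held the full cAMP response element, TGACGTCA, the palindrome that CREB proteins bind. The RefSeq window runs from 250 bases before to 50 bases after a start, in GRCm38.p6, and 6 of the 9 genes were matched to such a window, of which Prkar1a was the 1 with the element. The element is in capitals.
Prkar1a, chr11:109650889-109650918, plus strand: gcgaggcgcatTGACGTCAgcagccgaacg
It begins 49 bases before one start of the gene and 38 bases after another. The full element is in 3.40% of the windows of 11250 tested genes and in 3 of 79 genes of the wider list described next, where the others were Th and Slc18a2, both of catecholamine neurons. Because the element is a palindrome, both strands were searched at once. A match describes the letters in the window only.

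**Figure D2:**
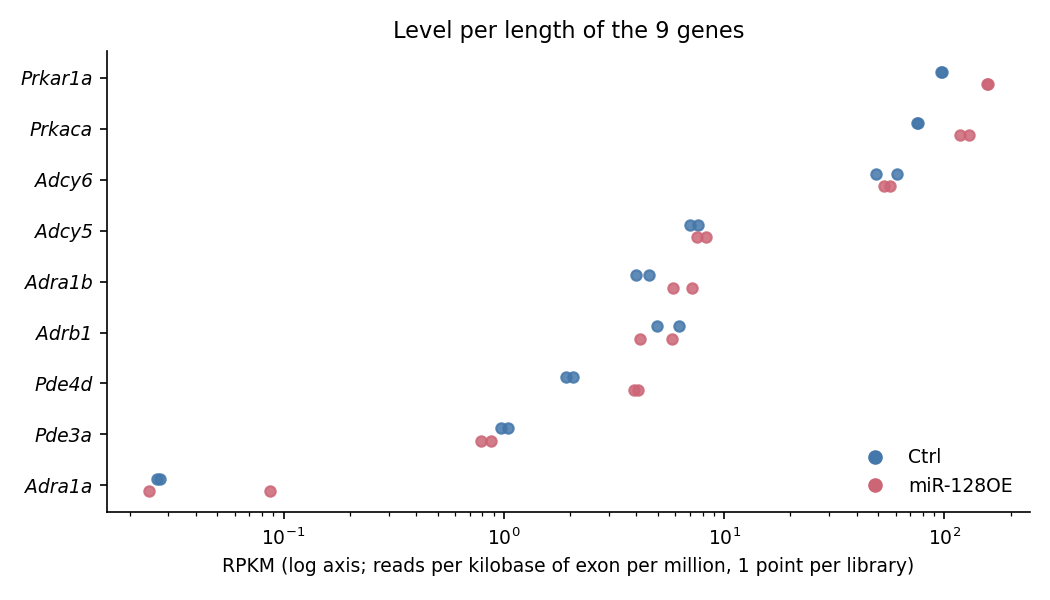
Level of each of the 9 genes per union exon length (horizontal log axis, RPKM) in each library, in order of the mean over 4 libraries. Points are libraries, blue for Ctrl and red for miR-128OE. Prkar1a, Prkaca and Adcy6 lie far above the other genes, and Adra1a lies at the bottom.

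Per exon length, Prkar1a was the most abundant of the 9 genes. Its level was 96.7 RPKM ± 0.916 in Ctrl and 157 RPKM ± 0.969 in miR-128OE hearts (each SD, n = 2). Prkaca followed, at 75.9 RPKM ± 0.586 in Ctrl and 124 RPKM ± 8.36 in miR-128OE hearts (each SD, n = 2). Adcy6 came next, with a mean over the 4 libraries of 55.1 RPKM. The order then went to Adcy5 (7.61), Adra1b (5.39), Adrb1 (5.28), Pde4d (2.99), Pde3a (0.921) and Adra1a (0.041). Over all 4 libraries, the ranges of neighbors overlapped for Prkar1a and Prkaca, for Adcy5 and Adra1b, and for Adra1b and Adrb1, and did not overlap for the other neighbors. Within each library Prkaca was below Prkar1a, at a per-length ratio of 0.786 and 0.784 in Ctrl and 0.825 and 0.756 in miR-128OE hearts. In Ctrl alone, Adrb1 (5.59 RPKM) stood above Adra1b (4.27 RPKM). The place of Pde4d depends on the length used, since its union of exons (12006 bases) is much longer than its longest transcript (4207 bases). With the longest transcript, its mean over the 4 libraries was 8.52 RPKM in place of 2.99, which moved it from rank 7 to rank 4. By that length Adrb1 (6.04 RPKM) also stood above Adra1b (5.48 RPKM). In Ctrl alone Pde4d was at 5.66 RPKM by that length, below Adcy5 (7.50 RPKM) and Adrb1 (6.41 RPKM).

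A wider list of 106 genes, compiled by symbol in 12 roles around the same pathway, puts the 9 genes in context. Of its 97 other genes, 88 were tested, 16 were higher and 18 were lower. Their log2 fold changes had a median of −0.03. The share called was 38.6%, against 31.5% of all tested genes. With the 9 genes included, 96 were tested, 20 were higher and 18 were lower. Without WH9 the counts were 11 and 8, without WH10 they were 13 and 10, and by DESeq2 they were 16 and 12. Over all tested genes the counts were then 897 and 667 of 14638 without WH9, 1265 and 1020 of 14624 without WH10, and 1713 and 1322 of 13389 by DESeq2. The counts by role below stand against 16.5% higher and 15.0% lower of all tested genes, and differences between roles were not tested.

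**Figure D3:**
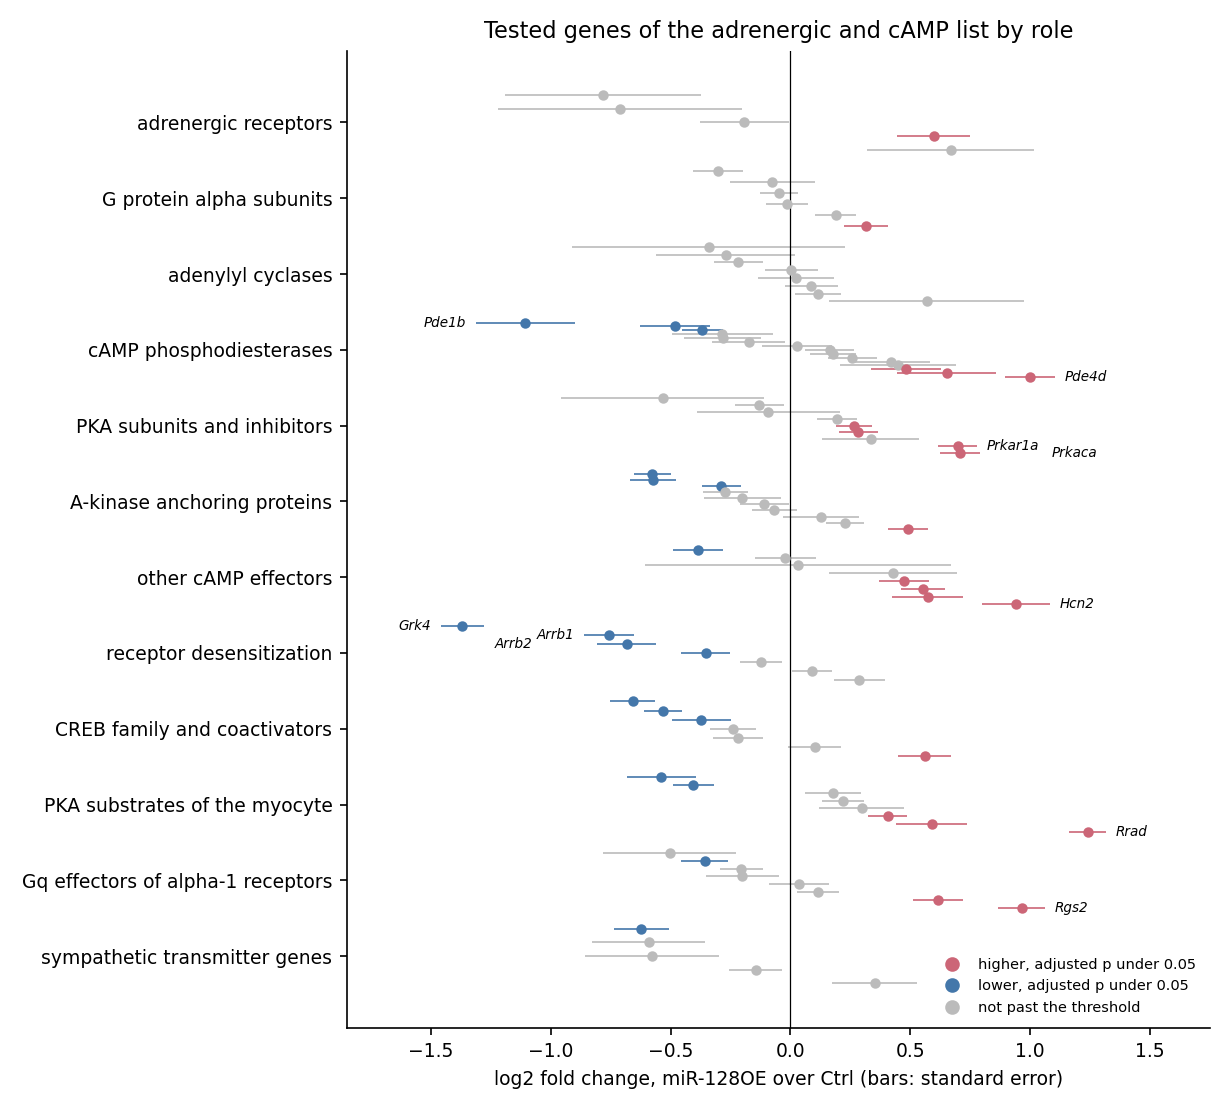
Log2 fold change of miR-128OE over Ctrl (horizontal axis) for the 96 tested genes of the list, in rows by role. Points are genes, bars are standard errors, red and blue mark genes higher or lower at an adjusted p under 0.05, and gray marks genes that did not pass. Rrad, Pde4d, Rgs2 and Hcn2 lie farthest to the right, and Grk4 and Pde1b farthest to the left, with Prkaca and Prkar1a at about 0.70.

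Receptor desensitization, by which G protein-coupled receptor kinases and arrestins switch receptors off, had 0 higher and 4 lower genes of 7 by edgeR's quasi-likelihood test. At an unadjusted p under 0.05 it had 1 higher and 4 lower, and by DESeq2 0 higher and 3 lower. Of all tested genes, 15.0% were lower. Grk4, a receptor kinase, had 1708 and 1874 normalized counts in Ctrl and 661 and 722 in miR-128OE hearts (log2 fold change −1.37, SE 0.09). Arrb1, the gene of β-arrestin 1, had 671 and 613 normalized counts in Ctrl and 359 and 401 in miR-128OE hearts (−0.76), and Arrb2 had 304 and 307 in Ctrl and 185 and 194 in miR-128OE hearts (−0.68). These genes fell in every alternative tried. Grk3 was the other lower gene, and lost its call without WH8, WH9 or WH10, by DESeq2 and with an offset for GC content and length. Grk2, the receptor kinase best known in the heart, had 1004 and 1022 normalized counts in Ctrl and 1032 and 1122 in miR-128OE hearts and did not pass the test.

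Between receptor and cyclase, Gnas, which encodes Gαs, was the 1 higher gene of 6 Gα genes, with a log2 fold change of 0.32. It lost its call with total counts, with upper-quartile factors, and without either miR-128OE library, and its exons overlap Nespas and Gm20721 on the other strand. Gnaq, which encodes the Gαq that α1 receptors use, had a log2 fold change of −0.30 that did not pass the test (edgeR adjusted p = 0.0541) but passed in 7 of 13 alternative fits. Gnai2, a gene of the inhibitory Gαi, had a log2 fold change of 0.19 that did not pass the test.

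Downstream of cAMP, the A-kinase anchoring proteins, which place PKA at its substrates, had 1 higher and 3 lower genes of 10 (1 and 2 by DESeq2). Akap13, 1 of the lower genes, lost its call in 4 of 13 alternative fits. Akap6, which anchors PKA at the nuclear envelope of myocytes, had a log2 fold change of 0.49. Akap9 (−0.58) and Akap8 (−0.57) fell, with Akap9 at 2493 and 2424 normalized counts in Ctrl and 1644 and 1657 in miR-128OE hearts. Akap12 had a log2 fold change of 0.23 that did not pass the test (edgeR adjusted p = 0.0556) but passed in 3 of 13 alternative fits. Of 8 other cAMP effectors, 4 were higher and 1 was lower (4 and 0 by DESeq2). The lower one, Rapgef3, lost its call by DESeq2 and without WH9. Hcn2, a gene of the cyclic nucleotide-gated pacemaker channel, had 139 and 122 normalized counts in Ctrl and 251 and 252 in miR-128OE hearts (log2 fold change 0.94). Popdc2 (0.55) and Bves (0.47), genes of cAMP-binding Popeye domain proteins, also rose, although Bves lost its call without WH10. Popdc3 (0.57), the remaining higher gene, lost its call without WH7, WH9 or WH10. Rapgef4, the gene of the exchange factor Epac2, had a log2 fold change of −0.02 and did not pass.

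Among 7 genes of the CREB family and its coactivators, 1 was higher and 3 were lower (1 and 2 by DESeq2). Crtc1, 1 of the lower genes, lost its call in 5 of 13 alternative fits. Creb1 had 962 normalized counts in both Ctrl libraries and 665 and 666 in miR-128OE hearts (log2 fold change −0.53), and Crebbp, the gene of the coactivator CBP, had a log2 fold change of −0.66. Crem, whose products include cAMP-inducible repressors, had 292 and 319 normalized counts in Ctrl and 468 and 431 in miR-128OE hearts (0.56), and lost its call without WH9. The count ratio of Crem to Creb1 was 0.303 and 0.332 in Ctrl and 0.704 and 0.646 in miR-128OE hearts. Atf1, the third gene of that family, had a log2 fold change of 0.10 and did not pass.

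Of 8 PKA substrates of the myocyte, 3 were higher and 2 were lower (3 and 1 by DESeq2). Cacna1c, 1 of the lower genes, lost its call in 4 of 13 alternative fits, and Pln, 1 of the higher, by DESeq2 and without WH9. Genes on the other strand overlap 59.6% of the exon bases of Pln (Gm47644) and 8.94% of those of Rrad (Gm33023), so their reads cannot be told apart either. Rrad, an inhibitor of the L-type calcium channel that PKA relieves, had 1298 and 1255 normalized counts in Ctrl and 3060 and 2976 in miR-128OE hearts (log2 fold change 1.24, SE 0.08). Fxyd1, the gene of phospholemman, had a log2 fold change of 0.41 and lost its call without WH10. Ryr2, the ryanodine receptor gene, had one of −0.40 and lost its call without WH9 or WH10 and with the offset for GC content and length. Tnni3, the troponin I gene, had one of 0.22 that did not pass the test but passed in 4 of 13 alternative fits. In the α1 branch, 2 of 8 Gq effectors were higher and 1 was lower (2 and 0 by DESeq2). Rgs2, which shuts off Gq, had 482 and 458 normalized counts in Ctrl and 978 and 862 in miR-128OE hearts (log2 fold change 0.97), and Prkca, the gene of protein kinase Cα, had 296 and 284 in Ctrl and 451 and 440 in miR-128OE hearts (0.62). Plcb3, a phospholipase C gene, had a log2 fold change of −0.36 and lost its call by DESeq2 and without WH7, WH9 or WH10. Prkce had one of 0.12 and did not pass.

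Of 8 genes that make, carry or break down catecholamines, 5 were tested. Maoa, the gene of monoamine oxidase A, was the lower one, at 437 and 392 normalized counts in Ctrl and 269 and 271 in miR-128OE hearts (log2 fold change −0.62). Its adjusted p without WH9 was 0.0507.

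Seed matches were present in 45 of the 96 tested genes of the list (46.9%). They were in 9 of the 20 higher genes, in 8 of the 18 lower genes and in 28 of the 58 that did not pass. Among all tested genes with a 3′UTR, matches were in 28.6% of the higher, 33.1% of the lower and 31.2% of those that did not pass. These shares did not take the length of the 3′UTRs into account, and differences between them were not tested. Whether seed matches bear on the direction of change was not tested either. Grk4, the most strongly lower gene of the list, had none in its 3′UTR of 2126 bases, and neither did Rrad, the most strongly higher, in 381 bases.

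Markers of the cells that a heart sample can hold were read in the same libraries, and their part in the results above was not tested. The counts of markers stand against 16.5% higher and 15.0% lower of all tested genes. Of 7 cardiomyocyte markers, 4 were higher and 1 was lower, by DESeq2 as well. Their summed normalized counts were 501770 and 534800 in Ctrl and 659530 and 644970 in miR-128OE hearts, and Myh6, the gene of the promoter that drives tTA, had the most counts. Counts of different markers here are not scaled by length. The 7 fibroblast markers had 0 calls by edgeR's quasi-likelihood test, by DESeq2 or at an unadjusted p under 0.05, with the most counts in Col3a1 and sums of 114360 and 74452 in Ctrl and 99631 and 108440 in miR-128OE hearts. Of 7 endothelial markers, 2 were higher and 2 were lower (2 and 1 by DESeq2), with the most counts in Cdh5 and sums of 21092 and 21180 in Ctrl and 22114 and 21200 in miR-128OE hearts. Smooth muscle and pericyte markers had 2 higher and 1 lower of 7 (2 and 0 by DESeq2). Their sums were 22056 and 20250 in Ctrl and 26306 and 30287 in miR-128OE hearts. Acta2 had the most counts in both miR-128OE libraries. In both Ctrl libraries Rgs5 had the most, with 7404 and 7266 normalized counts against 7382 and 6815 for Acta2. Of 7 macrophage markers 0 were higher and 1 was lower, Cx3cr1. Their sums were 1305 and 961 in Ctrl and 913 and 917 in miR-128OE hearts. Csf1r had the most counts in WH7, WH9 and WH10. In WH8 Cx3cr1 had the most, with 253 normalized counts against 198 for Csf1r. Of 13 alternative fits, the call of Myh6 was lost in 3 and that of Ttn in 3. The higher calls of Actc1, Nkx2-5 and Actn2 (log2 fold changes 1.34, 1.05 and 0.76) held in all 13. Among endothelial markers the call of Cdh5 was lost in 7, of Emcn in 5, of Egfl7 in 2 and of Pecam1 in 1. Among smooth muscle and pericyte markers that of Rgs5 was lost in 4 and that of Myh11 in 3.

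Of the sympathetic neuron markers, 3 of 7 were tested and Stmn2, with the most counts, was higher, with sums of 307 and 358 in Ctrl and 380 in both miR-128OE libraries. Dbh, the gene of the enzyme that makes noradrenaline, had 102 and 112 normalized counts in Ctrl and 56.4 and 84.1 in miR-128OE hearts, with both miR-128OE libraries below both Ctrl libraries, and did not pass the test (adjusted p = 0.0836 by edgeR's quasi-likelihood test). Slc6a2, the noradrenaline transporter gene, was not tested, with 12.8 and 8.48 normalized counts in Ctrl and 3.96 and 6.73 in miR-128OE hearts. Th, the gene of the enzyme that starts catecholamine synthesis, had at most 4 counts in any library. Schwann cell markers had 1 higher and 1 lower of 5 tested, with sums of 570 and 529 in Ctrl and 424 and 474 in miR-128OE hearts. Fat markers had 3 higher of 4 tested (1 by DESeq2), with the most counts in Cidea and sums of 403 and 400 in Ctrl and 850 and 648 in miR-128OE hearts. Ucp1, the uncoupling protein of brown fat, where β receptors and PKA also act, had 51.2 and 4.24 normalized counts in Ctrl and 250.5 and 159 in miR-128OE hearts. The call of Stmn2 was lost in 6 alternative fits, that of Adipoq in 5 of the 12 that tested it, that of Cidea in 4 and that of Ucp1 by DESeq2. The hemoglobin genes Hba-a1, Hba-a2, Hbb-bs and Hbb-bt were listed at 0 in every library, while Alas2, the erythroid heme synthesis gene, was higher.

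Atrial markers differed more between the 2 Ctrl libraries than between the groups. Their summed normalized counts were 79900 in WH7, 13213 in WH8, 35716 in WH9 and 42833 in WH10, and 0 of 6 passed by edgeR's quasi-likelihood test, by DESeq2 or at an unadjusted p under 0.05. Nppa, the atrial natriuretic peptide gene, had 31104 and 2746 normalized counts in Ctrl and 5165 and 10838 in miR-128OE hearts. It had the most counts of the 6 in WH7, while Pam, the peptide-amidating enzyme gene, had the most in WH8, WH9 and WH10, at 4947, 10872 and 10922. For Nppa and for the summed markers, the 2 Ctrl libraries lay on either side of the miR-128OE libraries. For Pam and Bmp10 they did not. Adcy1, a cyclase gene, had 166 and 22.6 normalized counts in Ctrl and 74.3 and 84.1 in miR-128OE hearts. It followed the order of the summed atrial markers in being highest in WH7 and lowest in WH8. In WH7 and WH8, Pde4d had 292 and 270 normalized counts and Adra1b had 182 and 158. Prkaca had 2213 and 2237 in these libraries, and Prkar1a had 4891 and 4957. Whether atrial tissue in the samples bears on the calls of these genes was not tested.

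**Figure D4:**
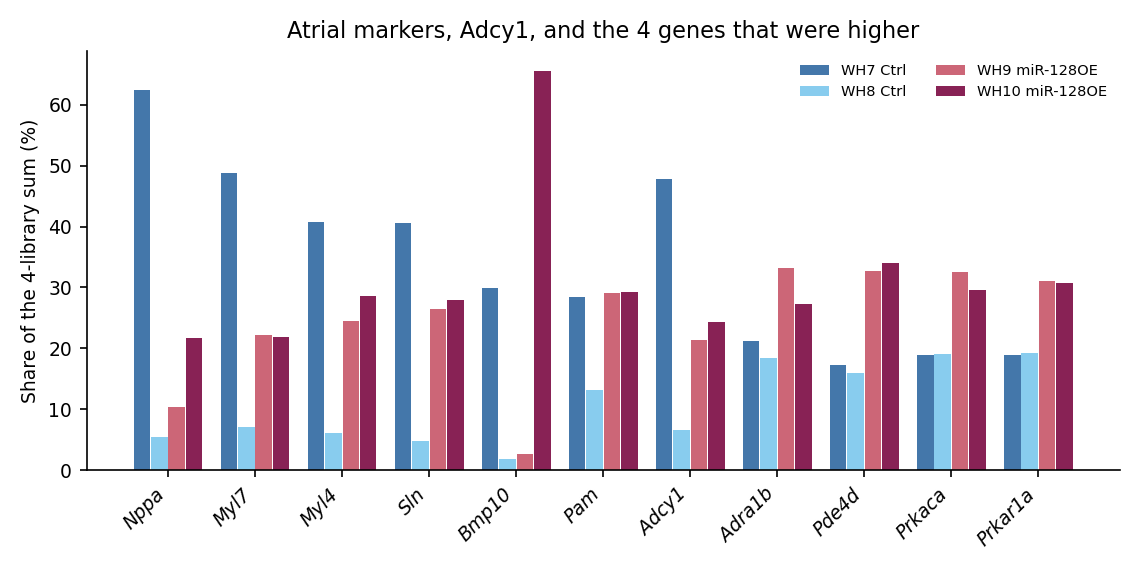
Share of each gene's normalized counts that falls in each of the 4 libraries (vertical axis, percent), for 6 atrial markers, for Adcy1 and for the 4 genes of the set that were higher. Bars are libraries. Adcy1 is highest in WH7 and lowest in WH8. For Adra1b, Pde4d, Prkaca and Prkar1a the bars of WH7 and WH8 are of similar height.

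The direction of the 4 calls was the same in 13 alternative fits, which used other tests, scalings and filters, an offset for GC content and length, or left out 1 library. The log2 fold change ranged from 0.90 to 1.11 for Pde4d, from 0.61 to 0.79 for Prkaca, from 0.60 to 0.75 for Prkar1a and from 0.47 to 0.75 for Adra1b. Pde4d, Prkaca and Prkar1a passed in all 13, and Adra1b in 12. Pde3a kept its negative sign in all 13, from −0.38 to −0.13, and Adcy5 its positive sign, from 0.02 to 0.19, with neither past the threshold. Adrb1, from −0.43 to 0.06, and Adcy6, from −0.15 to 0.18, changed sign.

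**Figure D5:**
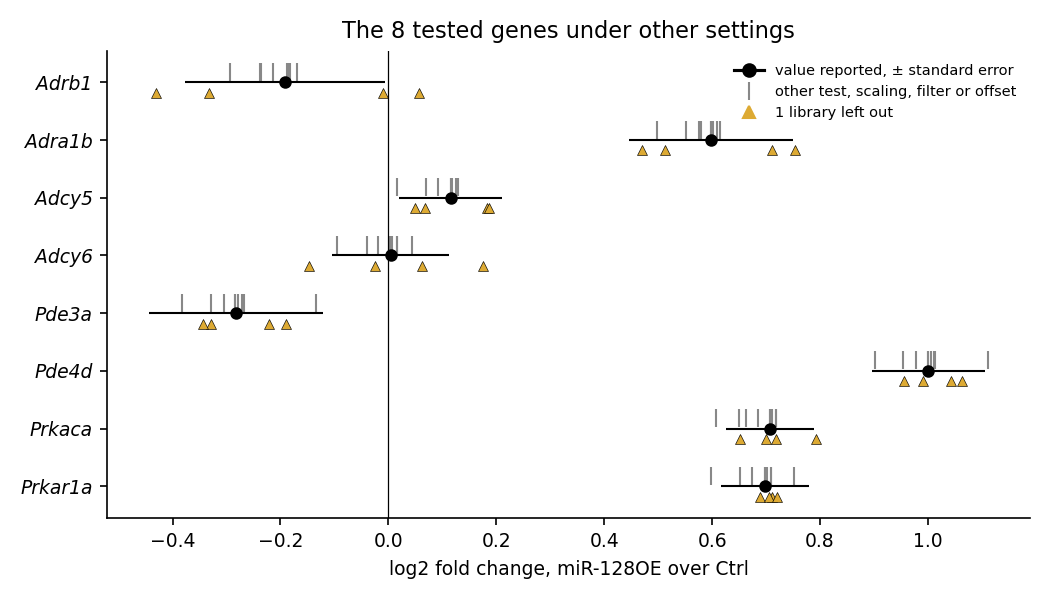
Log2 fold change of miR-128OE over Ctrl (horizontal axis) for the 8 tested genes. Black points with bars are the reported values with standard errors, gray ticks are other tests, scalings, filters or offsets, and yellow triangles leave out 1 library each. Pde4d, Prkaca, Prkar1a and Adra1b stay to the right of 0 throughout, while Adrb1 and Adcy6 fall on both sides.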

How the data were processed

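RNA-seq reads of P7 hearts had been quality filtered, aligned to mm10 with TopHat2 and counted on known genes with Bioconductor packages by the authors, who deposited raw counts per gene and library. Gene models and strand handling are not given in the sources used here. The submitters' processing notes name bcl2fastq, TopHat and edgeR. Depth was 8096870 to 14359838 counts a library. The floor of 3 counts covers counting error only.

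Entrez identifiers were matched to symbols for 24381 of 24454 genes. Conditions were compared with edgeR 4.0.16 in R 4.3.3 (filterByExpr with its default minimum of 10 counts, TMM factors, quasi-likelihood test), with Benjamini-Hochberg adjustment over 14266 genes and a threshold of 0.05. A standard error (SE) was obtained from the fold change and the F statistic. Normalized counts are TMM-scaled to the mean effective library size. RPKM uses the union of GENCODE M21 exons. The fit was tested on simulated counts with a common dispersion for all genes and few changed genes, unlike these data. Alternatives included DESeq2 1.42.0.

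The 9 genes and all lists were chosen with earlier results of these data known. Named genes were the 9, in each role up to 3 called genes with the smallest p and the most abundant gene not called, and in each cell type list the gene with the most counts and markers at or under 3 counts. Gnaq, Pde7b, Pde10a, Grk3, Prkar2a, Adcy1, Ucp1, Cx3cr1, Alas2, Slc18a2, Th, Rapgef3, Popdc3, Akap13, Crtc1, Cacna1c, Pln, several cell type markers and the untested receptors were named after their values were seen. A few genes that the rule names are not reported here. Seed matches were sought in protein-coding models alone, since the longest annotated 3′UTR of Adcy6 came from a model marked for nonsense-mediated decay.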

Additional observations from a re-analysis of the deposited data

How the results depend on the processing

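The count of higher genes among the 9 stayed at 4 (3 without WH9), and that of lower genes at 0, in every alternative. The log2 fold change of Adrb1 ranged from −0.43 to 0.056 with 1 library left out, and was positive without WH10. Adcy6 turned to −0.040 with upper-quartile factors, −0.094 with total counts, −0.019 with at least 50 counts in 2 libraries, −0.15 without WH7 and −0.024 without WH10, and reached 0.18 without WH8. With 1 library left out, the lone library was assumed to vary like the other group, and calls over all genes ranged from 897 to 2654 higher and from 667 to 2384 lower, against 2347 and 2143. The lowest counts came without WH9. In the list of 106 genes they ranged from 11 to 25 higher and from 8 to 21 lower, against 20 and 18. DESeq2 called 1713 higher and 1322 lower. A change of at least 1.5-fold, required as well, left 935 higher and 1187 lower genes, with 10 and 6 in the list and the same 4 among the 9. With total counts the split turned to 1611 higher and 2948 lower, and the median over all genes to −0.11 from −0.01 (log2), so that the list had 15 higher and 24 lower genes. With the offset for GC content and length it had 23 and 12. The longest transcript in place of the union of exons gave Ctrl levels of 119 RPKM for Prkar1a, 83.0 for Prkaca, 5.66 for Pde4d and 0.055 for Adra1a. Counting 6mer matches gave 5 genes with a seed match in place of 4, with Prkar1a added, and including models marked for decay, chosen after seeing the data, gave 4. No paired analysis was possible because the labels link no Ctrl library to a miR-128OE library. Depth limits the genes near the floor of 3 counts, Adra1a among the 9.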
